A study of Mus musculus with 6 samples.

Results

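The genes described are 10 WNT ligands, *Wnt2*, *Wnt2b*, *Wnt4*, *Wnt5a*, *Wnt5b*, *Wnt6*, *Wnt9a*, *Wnt10a*, *Wnt10b* and *Wnt11*, taken by symbol from the 32286 features of the deposited matrices. They were followed in Digits in a Dish (DID) cultures, in which dissociated limb cells reassemble in the dish into structures that resemble digits and joints. Distal forelimb mesenchyme of wild type CD-1 mouse embryos at E11.5 was pooled over embryos, dissociated, seeded and grown, and cultures were taken for 10x Genomics 3′ single-cell RNA-seq at Day 2, Day 7 or Day 10. Each day had 2 independent cultures, named replicates A and B, which gives 6 libraries, and every culture had the same genotype and medium. The groups differ in time in culture, and also in the cell filter, with mitochondrial limits of 25% at Day 2, 30% at Day 7 and 40% at Day 10. Whether the days shared a seeding, capture or sequencing run is not stated. Such differences cannot be told apart from time. All libraries come from pooled embryos of an outbred stock, and no intact limb was analysed here.

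WNT proteins are secreted, lipid-modified signals that act on nearby cells through Frizzled receptors. Some ligands, among them *Wnt9a*, *Wnt10a* and *Wnt10b*, are best known for stabilising β-catenin, which then acts with TCF and LEF factors in the nucleus. Others, above all *Wnt5a*, *Wnt5b* and *Wnt11*, are best known for routes without β-catenin that orient cells and tissue growth. In the developing limb, *Wnt5a* drives outgrowth along the limb's axis, *Wnt4* and *Wnt9a* mark and help to hold the joint-forming interzone in a non-cartilage state, and *Wnt10b* is known for promoting bone formation.

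Each member is a protein-coding gene, and positions are those of GRCm38, the build of the matrices. *Wnt10a* (ENSMUSG00000026167) lies at chr1:74791516-74804179 and *Wnt6* (ENSMUSG00000033227) at chr1:74771892-74785322, both on the plus strand and 6.2 kb apart, each the other's nearest coding gene. *Wnt10b* (ENSMUSG00000022996) lies at chr15:98770712-98778150 on the minus strand. *Wnt9a* (ENSMUSG00000000126) lies at chr11:59306928-59333552 on the plus strand, 16.2 kb from *Wnt3a*. *Wnt4* (chr4:137277489-137299726), *Wnt5a* (chr14:28504750-28527448) and *Wnt11* (chr7:98835112-98855195) are on plus strands, and *Wnt5b* (chr6:119432531-119544347), *Wnt2* (chr6:17988940-18030585) and *Wnt2b* (chr3:104945272-104961921) on minus strands. Antisense transcripts overlap *Wnt6* (*Gm29539*) and *Wnt5a* (*Gm2670*), *Fbxl14* overlaps *Wnt5b* on the opposite strand, and *Gm43846* lies in an intron of *Wnt2b* on the same strand.

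Promoter windows are shown for *Wnt10b* and *Wnt6*, which were both higher at Day 10 than at Day 2, and for *Wnt9a*, which was lower. Each runs from 250 bases before to 50 bases after a RefSeq start site (GRCm38.p6), on the strand of the gene, and capitals mark the GC box GGGCGG or its reverse complement, CCGCCC. The windows are chr15:98778101-98778400 for *Wnt10b*, chr1:74771642-74771941 for *Wnt6* and chr11:59306680-59306979 for *Wnt9a*.
Wnt10b: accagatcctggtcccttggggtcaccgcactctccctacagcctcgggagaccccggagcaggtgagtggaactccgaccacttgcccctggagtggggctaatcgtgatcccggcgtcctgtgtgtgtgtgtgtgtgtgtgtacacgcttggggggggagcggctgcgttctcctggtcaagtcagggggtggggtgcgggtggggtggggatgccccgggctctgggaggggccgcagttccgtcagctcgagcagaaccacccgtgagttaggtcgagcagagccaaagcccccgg
Wnt6: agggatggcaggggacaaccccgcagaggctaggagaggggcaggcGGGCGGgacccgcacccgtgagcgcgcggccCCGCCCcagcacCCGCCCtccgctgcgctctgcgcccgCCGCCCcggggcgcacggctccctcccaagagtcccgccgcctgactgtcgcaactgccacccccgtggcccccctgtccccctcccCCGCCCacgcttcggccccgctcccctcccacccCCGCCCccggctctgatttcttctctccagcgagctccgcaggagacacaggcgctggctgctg
Wnt9a: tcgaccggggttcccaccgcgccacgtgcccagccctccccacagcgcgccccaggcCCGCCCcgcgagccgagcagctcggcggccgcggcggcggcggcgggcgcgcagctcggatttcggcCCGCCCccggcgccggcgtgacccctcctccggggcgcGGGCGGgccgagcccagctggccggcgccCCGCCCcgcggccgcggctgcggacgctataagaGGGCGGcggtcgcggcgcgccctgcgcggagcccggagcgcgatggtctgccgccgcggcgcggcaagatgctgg
The *Wnt10b* window held 0 GC boxes, 18 CpG dinucleotides and 66.3% G or C. The *Wnt6* window held 6 GC boxes, 31 CpG and 76.7% G or C, and the *Wnt9a* window 5 GC boxes, 58 CpG and 83.3% G or C. Of the 32851 windows in all, 35.7% held a GC box on either strand, and the median G or C content was 52.7%. The core motif of TCF and LEF factors, CTTTGA on either strand, was in 16.0% of all windows and in none of these 3, and of the 11 windows of the 8 members in the table it was in 1 of *Wnt11* and 1 of *Wnt5b*. These are counts of letters in a window, and *Wnt5a* and *Wnt10a* were not among the members matched.

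The libraries held 9448 to 16490 cells after the filters that the study states, with 178026112 to 260323144 UMIs (unique molecular identifiers, each counting 1 captured transcript) per library. The median cell had 18587 UMIs in Day 2 replicate A but 3868.5 in Day 2 replicate B, where 41.5% of the cells had under 3000 UMIs. That library stands apart from its partner in depth per cell, and the ligand call that differed without it, *Wnt2* at Day 10 against Day 2, is given both ways. Pairs of libraries shared 24 to 68 cell barcodes, at most 0.543% of a library. The cultures carried the limb mesenchyme gene *Prrx1* at 219 to 430 CPM (the UMIs of a gene scaled to the same total in every library, here with TMM factors), all 9 chondrocyte markers in every library, and the 5 endothelial markers at a summed 0.685 to 1.57 CPM without these factors.

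The mix of WNT ligands changed over the culture period. *Wnt10a* rose 42.1-fold from Day 2 to a level at Day 10 like that of *Wnt5b*, *Wnt10b* rose 16.4-fold from a lower level, and *Wnt6* rose between Day 7 and Day 10. *Wnt5a*, *Wnt9a*, *Wnt11* and *Wnt4* were lower at Day 10 than at Day 2, and *Wnt5b* did not pass the test between any days. Levels of whole cultures are CPM over all filtered cells of a library, scaled between libraries by TMM factors. Because 3′ counting gives 1 tag per transcript, they are compared between genes without a correction for length. In such sums, fewer cells that hold a gene and less of its RNA per cell cannot be told apart.

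**Figure D1:**
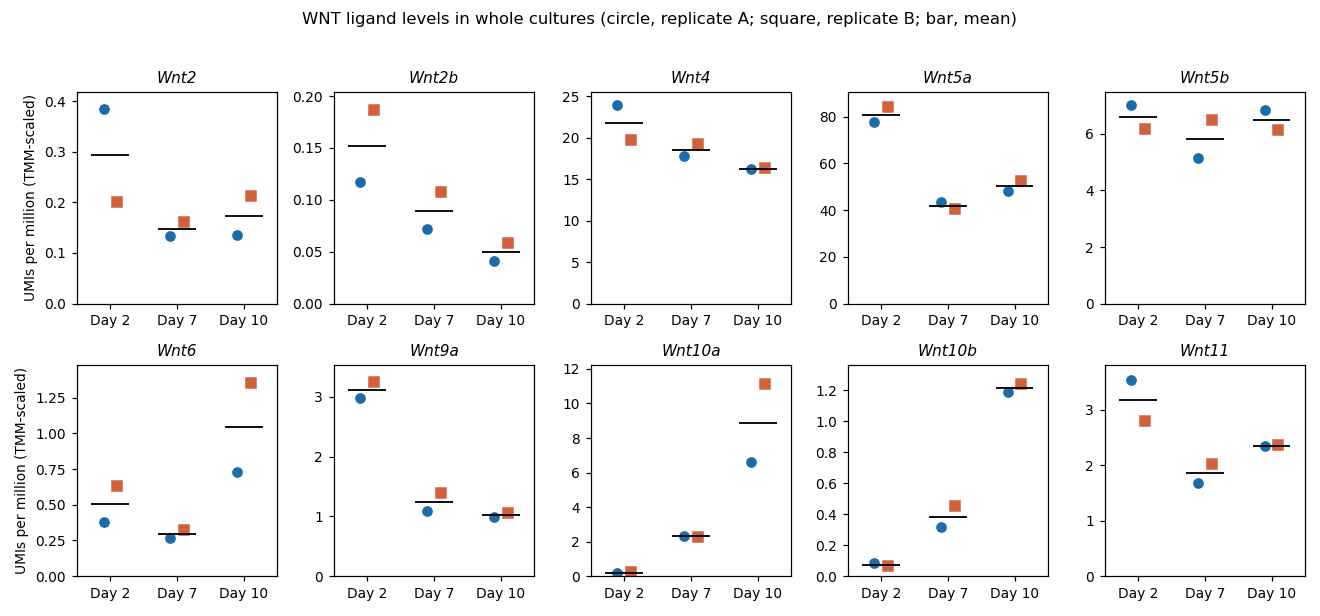
Level of each WNT ligand in the 6 libraries, in CPM (TMM-scaled, linear axes that start at 0 and differ between panels), by day; circles are replicate A, squares replicate B and bars the mean of both. *Wnt10a* and *Wnt10b* climb at each day, whereas *Wnt5a* and *Wnt9a* drop between Day 2 and Day 7.

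*Wnt10a*, a ligand of the β-catenin route known from skin, hair and tooth, stood at 0.177 and 0.246 CPM in Day 2 replicates A and B, at 2.33 and 2.28 at Day 7, and at 6.62 and 11.1 at Day 10. No library of a later day overlapped an earlier day, and the Day 10 replicates lay further apart than those of the other days. The log2 fold change was 3.45 ± 0.30 (SE) at Day 7 against Day 2 (edgeR quasi-likelihood test, Benjamini-Hochberg adjusted p = 9.90e-06), 1.94 ± 0.22 at Day 10 against Day 7 (adjusted p = 0.000194), and 5.40 ± 0.29 at Day 10 against Day 2 (adjusted p = 3.33e-07). It passed the test in all 13 alternatives of each comparison, with log2 fold changes of 2.17 to 3.76, 1.53 to 2.47 and 4.64 to 5.86. The lowest at Day 7 and at Day 10 against Day 2 came from cells thinned to 1000 UMIs.

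*Wnt10b*, the ligand of the same pair of paralogs that is tied to bone, followed at lower levels. It stood at 0.0822 and 0.0639 CPM on Day 2, 0.317 and 0.452 on Day 7, and 1.19 and 1.24 on Day 10, again without overlap between days. The log2 fold changes were 2.38 ± 0.27 at Day 7 against Day 2 (edgeR, adjusted p = 5.14e-05), 1.66 ± 0.20 at Day 10 against Day 7 (adjusted p = 0.000289) and 4.04 ± 0.25 at Day 10 against Day 2 (adjusted p = 7.75e-07). The Day 2 values rest on 19 and 13 UMIs, so the size of the fold change over Day 2 is less certain than its direction, which held in every alternative.

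*Wnt6*, which in the embryo is best known from surface ectoderm, stood at 0.376 and 0.629 CPM on Day 2, 0.266 and 0.323 on Day 7, and 0.731 and 1.36 on Day 10. Both Day 10 libraries lay above the other 4. It rose by 1.82 ± 0.35 on the log2 scale between Day 7 and Day 10 (edgeR, adjusted p = 0.00276) and was 1.06 ± 0.33 higher at Day 10 than at Day 2 (adjusted p = 0.0156), while Day 7 against Day 2 gave -0.77 ± 0.36 (adjusted p = 0.0864). The latter was called lower in 5 of 13 alternatives, and over all 13 it ran from -2.17 with every cell thinned to 1000 UMIs to -0.36 without Day 2 replicate B. The rise from Day 7 passed in 12 of 13 alternatives and gave 2.56 with thinned cells (edgeR, adjusted p = 0.0564). The difference between Day 10 and Day 2 passed in 9 of 13: it was 0.39 with thinned cells (adjusted p = 0.614), 0.56 without Day 10 replicate B (0.139), 0.73 without Day 2 replicate A (0.110) and 0.80 without TMM factors (0.0518).

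*Wnt5a* was the most abundant of the 10 in every library, at 77.5 and 84 CPM on Day 2, 43.5 and 40.4 on Day 7, and 48.3 and 52.4 on Day 10. It fell by 0.95 ± 0.066 on the log2 scale between Day 2 and Day 7 (edgeR, adjusted p = 2.42e-06), rose by 0.26 ± 0.065 between Day 7 and Day 10 (adjusted p = 0.00955), and was 0.68 lower at Day 10 than at Day 2, a log2 fold change of -0.68 ± 0.065 (adjusted p = 1.37e-05). The later rise passed in 10 of 13 alternatives (edgeR, adjusted p from 0.000963 to 0.742): it was 0.22 without Day 7 replicate B, 0.21 without Day 10 replicate B, and 0.06 with every cell thinned to 1000 UMIs. *Wnt11*, another ligand best known for routes without β-catenin, stood at 3.53 and 2.80 CPM on Day 2, 1.68 and 2.03 on Day 7, and 2.34 and 2.36 on Day 10. It fell by 0.78 ± 0.14 between Day 2 and Day 7 (edgeR, adjusted p = 0.000936). The difference between Day 10 and Day 2 was -0.43 ± 0.13 (edgeR, adjusted p = 0.0162), and Day 10 against Day 7 gave 0.34 ± 0.14 (adjusted p = 0.0677). The former was -0.25 without Day 2 replicate A (adjusted p = 0.142), -0.42 without Day 10 replicate A (0.0723) and -0.43 without Day 10 replicate B (0.0639), and passed in the other 10 alternatives, with -1.14 in thinned cells.

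*Wnt5b*, the paralog of *Wnt5a* known from cartilage, differed from it in showing overlapping libraries on all 3 days. Its levels were 7.03 and 6.16 CPM on Day 2, 5.16 and 6.49 on Day 7, and 6.84 and 6.12 on Day 10. The log2 fold changes were -0.18 ± 0.12, 0.16 ± 0.12 and -0.03 ± 0.12 for Day 7 against Day 2, Day 10 against Day 7 and Day 10 against Day 2 (edgeR, adjusted p = 0.194, 0.291 and 0.846).

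*Wnt4* and *Wnt9a*, the ligands tied to the joint interzone, both ended lower than they began, by different amounts. *Wnt4* was the second most abundant of the 10 in every library, at 23.9 and 19.7 CPM on Day 2, 17.8 and 19.3 on Day 7, and 16.2 and 16.4 on Day 10. It was lower at Day 10 than at Day 2 by a log2 fold change of -0.42 ± 0.087 (edgeR, adjusted p = 0.00189), and Day 10 against Day 7 gave -0.19 ± 0.088 (adjusted p = 0.107). Day 7 against Day 2 gave -0.24 ± 0.087 (adjusted p = 0.0368), a call that held in 6 of 13 alternatives (adjusted p from 0.000395 to 0.615). It was -0.08 without Day 2 replicate A, -0.17 without Day 7 replicate A and -0.29 without Day 7 replicate B, and failed in each.

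*Wnt9a* stood at 2.98 and 3.25 CPM on Day 2, 1.09 and 1.38 on Day 7, and 0.988 and 1.06 on Day 10. The Day 2 libraries lay above all 4 later libraries. It fell by 1.33 ± 0.14 on the log2 scale between Day 2 and Day 7 (edgeR, adjusted p = 2.72e-05), and the change from Day 2 to Day 10 was -1.61 ± 0.14 (adjusted p = 6.23e-06). Day 10 against Day 7 gave -0.27 ± 0.14 (adjusted p = 0.137).

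*Wnt2* and *Wnt2b*, paralogs best known from lung and other internal organs, were at trace level. *Wnt2* ranged from 0.133 to 0.385 CPM, on 26 to 89 UMIs per library. Its call at Day 7 against Day 2 (log2 fold change -1.0 ± 0.37, edgeR, adjusted p = 0.0377) held in 5 of 12 alternatives, and was lost without Day 2 replicate A (-0.45, adjusted p = 0.324) and without either Day 7 replicate (-0.86 and -1.14). Day 10 against Day 2 gave -0.77 ± 0.36 (edgeR, adjusted p = 0.0741), and without Day 2 replicate B, the shallow library, -1.16 (adjusted p = 0.0148). *Wnt2b* had 10 to 38 UMIs per library and never more than 1 in a cell. It was lower at Day 10, at 0.0408 and 0.0585 CPM, than at Day 2, at 0.117 and 0.187 (log2 fold change -1.60 ± 0.40, edgeR, adjusted p = 0.00527; called in all 12 alternatives).

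**Figure D2:**
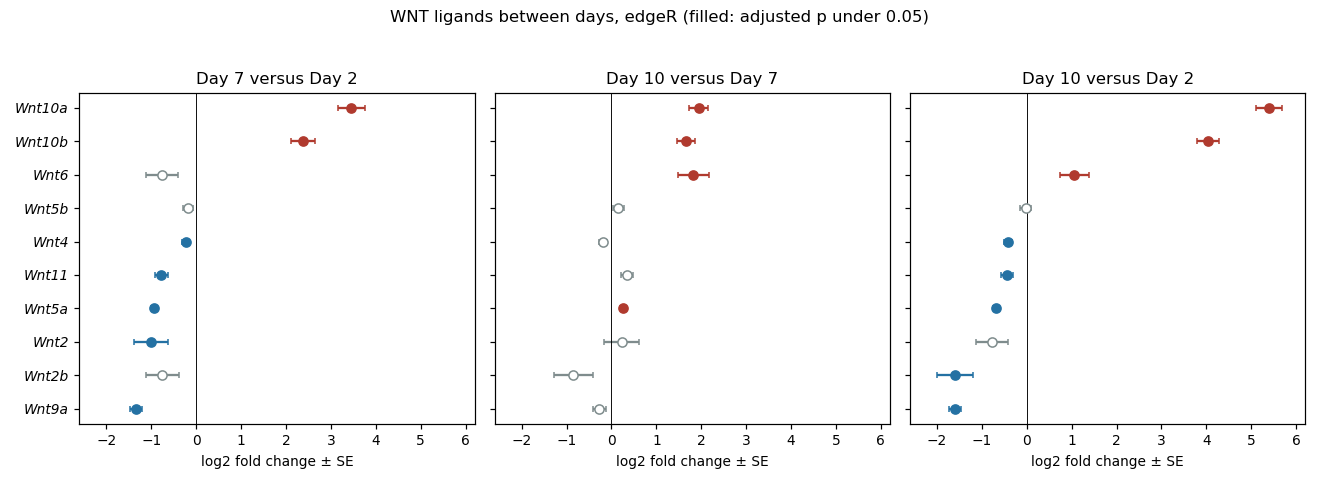
Log2 fold change of each ligand between days (points, with bars of 1 standard error from the edgeR fit), 1 panel per comparison; filled points passed an adjusted p of 0.05, red higher and blue lower. *Wnt10a* and *Wnt10b* are the ligands that lie to the right and are filled in all 3 panels.

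Counted over the family, 2 of the 10 ligands rose, 5 fell and 3 did not pass between Day 2 and Day 7, where 35.7% of all 18987 genes tested were called higher and 34.6% lower. Between Day 7 and Day 10, 4 rose, 0 fell and 6 did not pass, beside 26.3% of all genes called higher and 25.8% lower. From Day 2 to Day 10, 3 were higher, 5 lower and 2 did not pass, beside 39.1% and 38.2%. The median log2 fold change of the 10 was -0.76, 0.25 and -0.43 in these comparisons, and that of all genes was 0.01, -0.02 and 0.00. The 3 comparisons share libraries, so a high Day 2 value enters 2 of them. With this many genes called in either direction, the counts over 10 ligands are given as a description and nothing is read from them about the family.

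The calls of the smaller changes also depended on scaling. Without TMM factors the median of all genes moved by -0.28 on the log2 scale at Day 7 against Day 2 and by -0.26 at Day 10 against Day 2. All genes then split into 4647 higher and 9324 lower, in place of 6774 and 6571, and into 5473 higher and 9348 lower, in place of 7416 and 7260. The ligands split into 2 higher and 8 lower, and 2 higher and 7 lower, and no ligand turned direction. Without Day 2 replicate B, the shallow library, 2 ligands were higher and 5 lower at Day 7 against Day 2, and 3 higher and 6 lower at Day 10 against Day 2, where *Wnt2* was the one more.

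The cells that held each ligand were then located. The cells of each day were clustered again after the study's methods with all WNT genes left out of the clustering features, which gave 14 clusters at Day 2, 16 at Day 7 and 17 at Day 10. A cluster was called "X-like" where at least 3 markers of 1 cell type were enriched in both libraries, and 6, 5 and 5 clusters stayed unnamed. Cluster levels are CPM of that cluster's own total, without TMM factors, and are descriptions: clusters drawn from these cells are not compared with the rest by a test, nor are they the same cells on different days. Immune-like cells serve as a comparison class where shares of cells are given. Whether they make these ligands themselves was not tested. At Day 10 they had *Wnt4* at 8.25 and 3.86 CPM, above the 2.37 and 2.79 of contractile-like cells, so they are not read as a floor of free RNA.

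**Figure D3:**
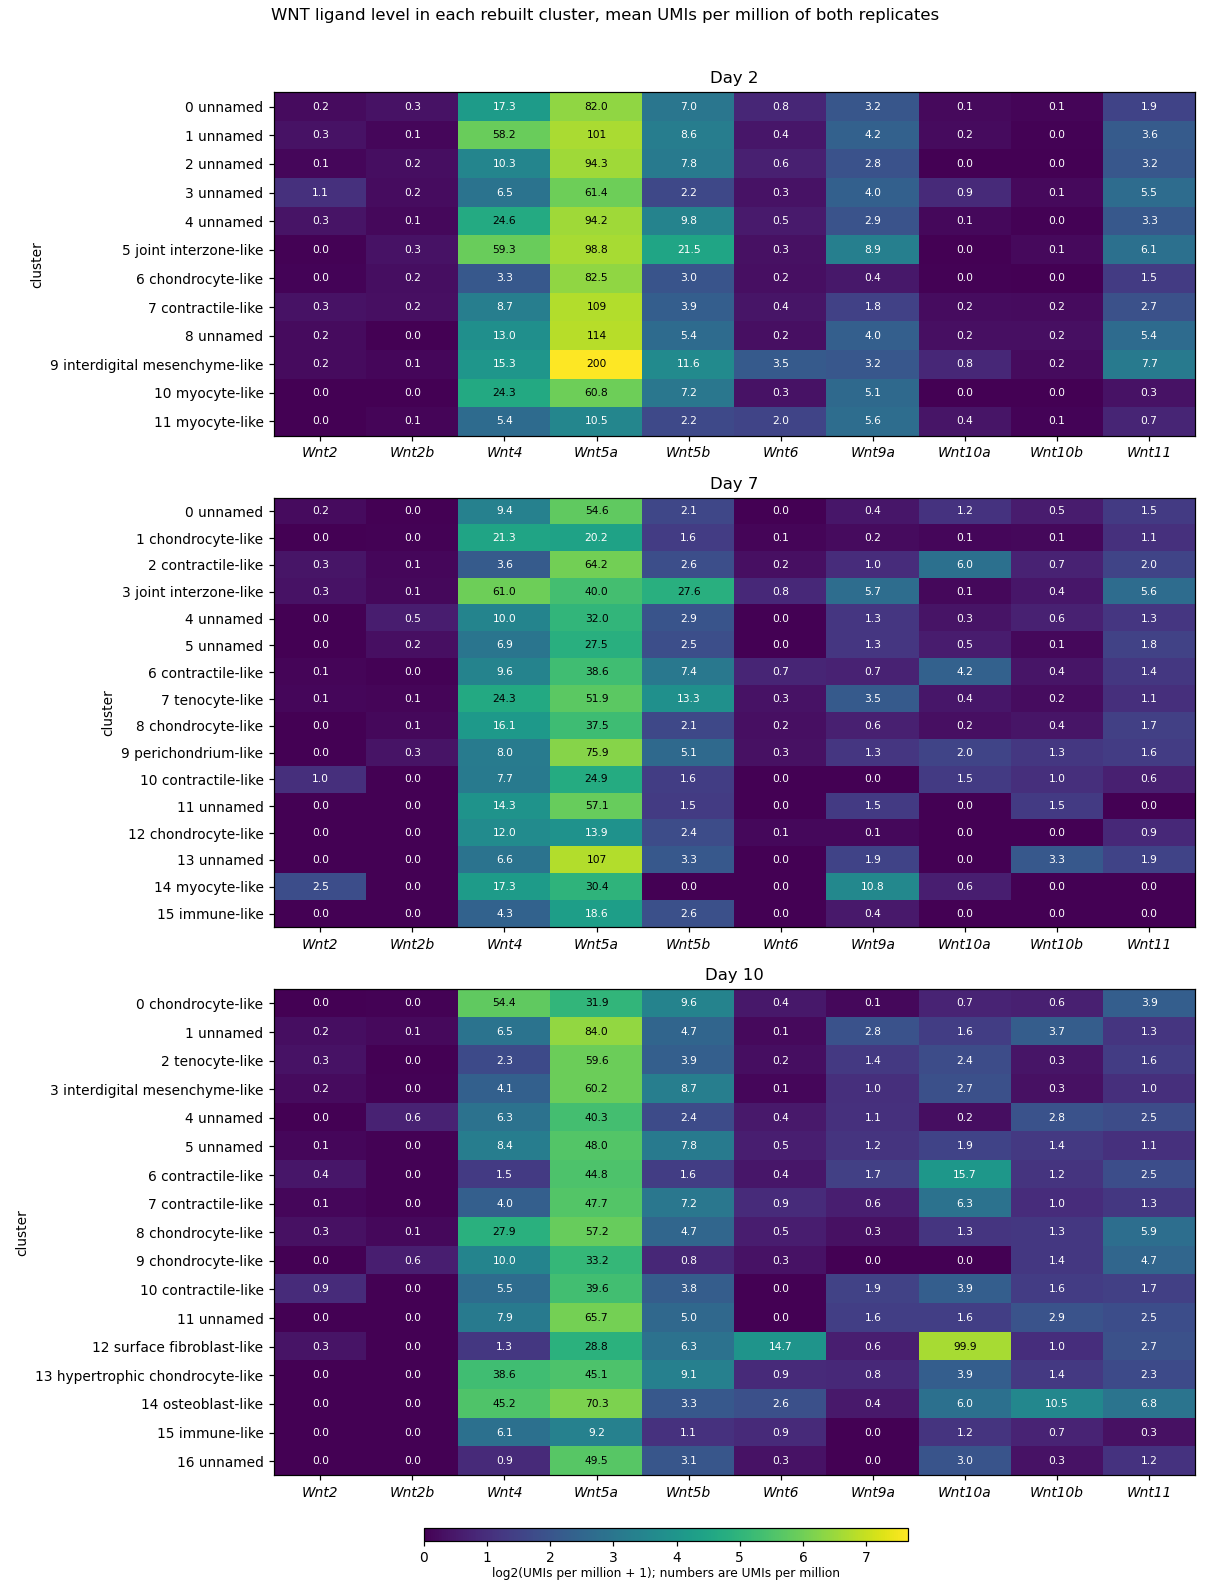
Mean level of the 10 ligands in each rebuilt cluster with at least 20 cells in both libraries, in CPM of the cluster's total, averaged over replicates A and B; colour follows log2 of the level plus 1 and the numbers are the levels. The 99.9 of *Wnt10a* in the surface fibroblast-like cluster of Day 10 stands beside values of 15.7 and below in every other cluster of that day.

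*Wnt10a* lay mainly in contractile-like cells at Day 7 and was highest in surface fibroblast-like cells at Day 10. At Day 2 it was sparse, and 51.2% and 42% of its few UMIs lay in unnamed Cluster 3, led by *Ankrd1*, *Krt18* and *Hbegf*. That cluster was enriched for all 6 contractile markers, as was Cluster 2 of Day 7, but none of them was among its leading genes, and without integration the highest cluster of Day 2 was named contractile-like. At Day 7, 92.1% and 93.6% of its UMIs in replicates A and B lay in contractile-like cells, which carry the smooth muscle genes *Cnn1*, *Tagln* and *Acta2*. Their Cluster 2 alone held 65.6% and 69.7% and reached 5.94 and 6.11 CPM. The study itself used *Wnt10a*, beside *Cnn1*, *Igfbp7*, *Spp1* and *Stmn2*, to annotate osteoblast clusters at Day 7 and Day 10. The clusters here were not matched to those.

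At Day 10 the highest *Wnt10a* level was in Cluster 12, a small group of 133 and 322 cells called surface fibroblast-like from *Cd34*, *Ly6a*, *Cd248* and *Ackr3*, and led by *Msln*, *Sncg* and *Efemp1*. The class markers *Dpp4* and *Pi16* did not pass in that cluster, which was also enriched for markers of dividing cells. *Wnt10a* stood there at 69.8 and 130 CPM. A *Wnt10a* UMI was found in 64.7% (95% exact binomial interval 55.9 to 72.7) and 76.4% (71.4 to 80.9) of its cells, against 1.69% and 3.07% of immune-like cells; the median cell had 38138 and 33555 UMIs in Cluster 12 and 21232 and 21616 among immune-like cells. With every cell thinned to 1000 UMIs the shares in Cluster 12 were 9.77% and 9.32%. Such intervals cover counting error only.

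The cluster made up 1.28% of the cells of Day 10 replicate A and 3.24% of replicate B, and it held 22.9% and 61.7% of their *Wnt10a* UMIs. Contractile-like cells, the main holder of Day 7, still held 52.7% and 26.8% at Day 10, at 12 and 11.2 CPM, and so had the larger part in replicate A and the smaller in replicate B. Outside Cluster 12 *Wnt10a* stood at 4.90 and 4.27 CPM (without TMM factors), closer together than the 6.22 and 10.6 of all cells. These outside levels were above the 2.19 and 2.11 of all Day 7 cells, and the part of the cluster in the rise was not tested. By level, contractile-like Cluster 6 followed Cluster 12 at 15.7 and 15.8 CPM, and osteoblast-like Cluster 14 was at 5.93 and 6.14. *Wnt10a* was highest in a surface fibroblast-like cluster in all 4 alternative clusterings of Day 10.

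*Wnt6* shared that Day 10 cluster. It stood there at 13.4 and 16.0 CPM, with a UMI in 25.6% and 32.3% of cells against at most 4.29% of immune-like cells in either library, and the cluster held 39.7% and 62.1% of all *Wnt6* UMIs. Outside the cluster *Wnt6* was at 0.424 and 0.515 CPM, against 0.249 and 0.299 over all Day 7 cells. Within Cluster 12, 30 of 86 cells with a *Wnt10a* UMI also had a *Wnt6* UMI in replicate A and 94 of 246 in replicate B, which is 34.9% and 38.2%. Among cells of the cluster without a *Wnt10a* UMI the shares were 8.51% and 13.2%, and these cells were also shallower, with medians of 35010 and 29357 UMIs against 40548 and 35144.

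Since *Wnt6* is best known from ectoderm, the ectoderm markers were read in the same cells. The list is not specific to ectoderm here: its gene *Krt18* was also a leading gene of unnamed Cluster 3 of Day 2, which was enriched for all 6 contractile markers. Of the Day 10 cells with a *Wnt6* UMI, 2 of 116 and 16 of 195 had at least 3 of the 8 ectoderm markers (1.72% and 8.21%), against 31 of 10388 and 63 of 9949 of all cells (0.298% and 0.633%), and *Epcam*, an epithelial adhesion gene, was detected in at most 3 of them in a library. For *Wnt10a* the numbers were 6 of 682 and 35 of 658 (0.88% and 5.32%), with *Epcam* in 4 and 9. So cells with either ligand carried these markers at a larger share than all cells, and in replicate B 35 of the 63 cells with the markers had a *Wnt10a* UMI; the cells with a ligand were also deeper, with medians of 34853 to 40441 UMIs against 20718 to 23965 in cells without. Over whole cultures the 8 markers together stood at 108 and 75.6 CPM (marker sums are without TMM factors) at Day 2 and at 32.7 and 41.6 at Day 10, while the summed surface fibroblast markers went from 72.3 and 67.8 to 136 and 156; the part of either marker list in the ligands' levels was not tested. At Day 2, 5 of 75 and 3 of 72 cells with a *Wnt6* UMI and 3 of 29 and 6 of 30 with a *Wnt10a* UMI had at least 3 ectoderm markers, against 1.07% and 0.37% of all cells. At Day 7 they were 0 of 41 and 0 of 50 for *Wnt6* and 2.49% and 2.34% for *Wnt10a*, against 0.185% and 0.178%. At Day 2 and Day 7 *Wnt6* was too sparse for a clear holder: its highest cluster with at least 3 UMIs in both libraries was myocyte-like at Day 2 (2.40 and 1.52 CPM), and 39 of its 128 UMIs in Day 2 replicate B lay in 2 interdigital mesenchyme-like cells.

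*Wnt10b* was highest at Day 10 in osteoblast-like Cluster 14, which carried *Runx2*, *Sp7*, *Ibsp* and *Bglap*. It stood there at 9.70 and 11.4 CPM, and a UMI was found in 27.2% and 28.6% of its cells (median depth 34017 and 32286 UMIs) against 0.847% and 2.45% of immune-like cells. The cluster held 18.5% and 22.8% of *Wnt10b* UMIs within 2.14% and 2.37% of all UMIs. Contractile-like cells, at 1.18 and 1.04 CPM, held 28.8% and 22.1%, and the unnamed clusters together 30.1% and 25.7%. Outside Cluster 14 *Wnt10b* was at 0.934 and 0.935 CPM, above the 0.297 and 0.419 of all Day 7 cells. The Day 10 holder was osteoblast-like in 3 of 4 alternative clusterings, at 6.62 CPM by mean with WNT genes among the features, and at 0.5 times the resolution it was perichondrium-like, at 4.11. Summed osteoblast markers of whole cultures moved the same way, from 77.0 and 73.7 CPM (without TMM factors) at Day 7 to 693 and 932 at Day 10. The part of osteoblast-like cells in the rise was not tested. At Day 7, the highest level with at least 3 UMIs in both libraries was in perichondrium-like cells, at 1.15 and 1.55 on 5 and 5 UMIs. At 0.5 times the resolution it was 0.67 by mean in contractile-like cells. In the main clusters contractile-like cells held 59.7% and 58.3% of the *Wnt10b* UMIs of Day 7, at 0.473 and 0.655 CPM.

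*Wnt4* moved little in whole cultures beside these ligands, between 16.2 and 23.9 CPM, while the cells that held it differed from day to day. At Day 2 it was highest in joint interzone-like Cluster 5, marked by *Gdf5*, *Erg* and *Osr2*, at 60.0 and 58.5 CPM. Level with it was unnamed Cluster 1, led by *Meis2*, *Pkdcc* and *Aspn*, at 60.7 and 55.8, which held 40.9% and 42.9% of *Wnt4* UMIs. Chondrocyte-like cells, marked by *Col2a1* and *Acan*, had 3.27 and 3.35 and held 1.3% and 1.72%. The unnamed clusters together held 67.7% and 70.2%, so the shares of the named classes depend on which clusters got a name.

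At Day 7 *Wnt4* was again highest in a joint interzone-like cluster, at 62.4 and 59.5 CPM. Chondrocyte-like cells had 19.9 and 21.2, and as they held 40.8% and 39.2% of all UMIs they held 48.7% and 46.6% of those of *Wnt4*. At Day 10 chondrocyte-like cells reached 49.0 and 52.7 CPM and 69.5% and 67.4% of *Wnt4* UMIs, within 21.7% and 19.9% of all UMIs. Their Cluster 0 had 52.0 and 56.8, with a UMI in 44.5% and 49.9% of cells (median depth 36696 and 33622 UMIs) against 11% and 7.98% of immune-like cells. With every cell thinned to 1000 UMIs the shares in Cluster 0 were 4.4% and 3.64%.

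Chondrocyte-like cells had less *Wnt4* at Day 2 than joint interzone-like, interdigital mesenchyme-like, contractile-like or myocyte-like cells, and at Day 10 they were among the highest. Osteoblast-like cells had 50.8 and 39.5 CPM and hypertrophic chondrocyte-like cells, which express *Col10a1* and *Ihh*, had 39.7 and 37.5, and no cluster of Day 10 was named joint interzone-like. Because the classes were drawn anew on each day, the difference between days within a class was not tested. The Day 10 holder of *Wnt4* was chondrocyte-like in all 4 alternative clusterings, and the Day 2 and Day 7 holders kept their names in 3 of 4 each.

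**Figure D4:**
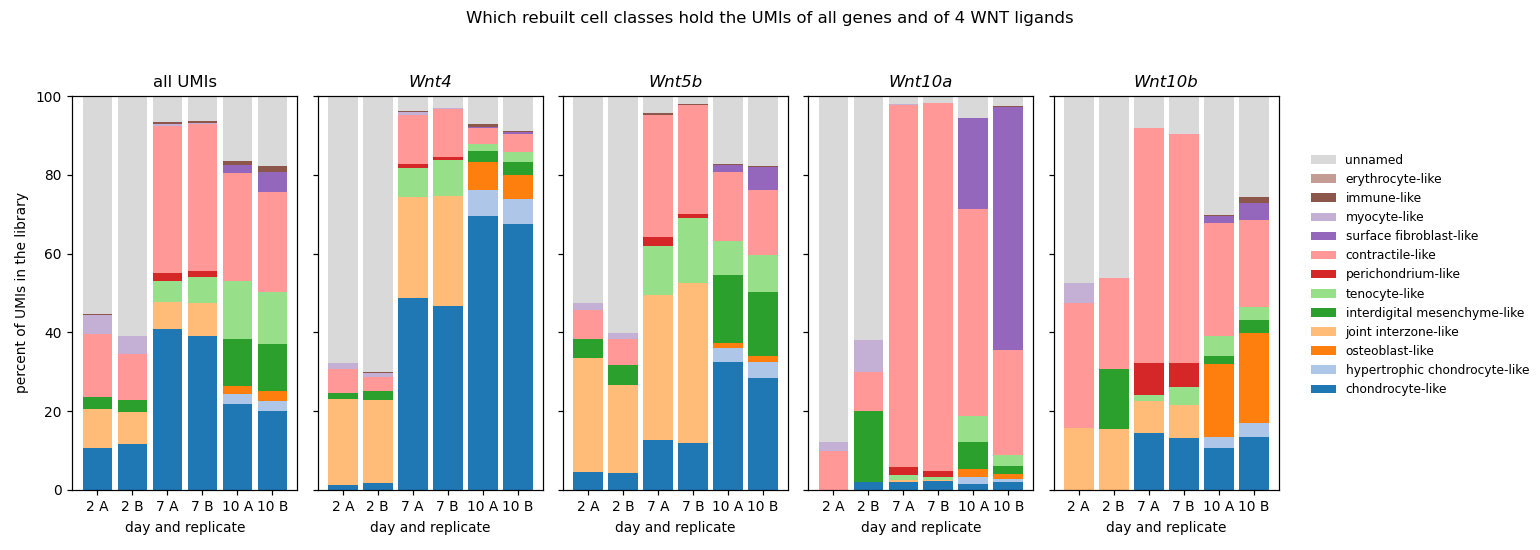
Share of all UMIs (left) and of the UMIs of *Wnt4*, *Wnt5b*, *Wnt10a* and *Wnt10b* that lay in each rebuilt cell class, in percent, for the 6 libraries named by day and replicate; unnamed clusters are grey. For *Wnt4* the chondrocyte-like part is 1.3% and 1.72% at Day 2, when unnamed clusters hold 67.7% and 70.2%. At Day 10 it is 69.5% and 67.4%, when unnamed clusters hold 7.22% and 8.84%. For *Wnt10a* the surface fibroblast-like part appears at Day 10 with 22.9% and 61.7%.

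*Wnt5b* was also highest in joint interzone-like cells at Day 2 and Day 7, and *Wnt9a* at Day 2. *Wnt9a* stood in them at 7.27 and 10.6 CPM at Day 2 and at 5.17 and 6.25 at Day 7, when they held 34.7% and 40.9% of its UMIs. Myocyte-like cells of Day 7 were higher, at 6.86 and 14.8 CPM on 6 and 3 UMIs. At Day 10 its highest level with at least 3 UMIs in both libraries was 2.70 and 2.98 in unnamed Cluster 1, and with the clusters drawn more finely or with WNT genes among the features it was 5.33 and 4.22 by mean in small unnamed clusters.

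*Wnt5b* stood at 23.6 and 19.4 CPM in joint interzone-like cells at Day 2 and at 26.1 and 29.2 at Day 7. At Day 7 these cells held 36.9% and 40.7% of *Wnt5b* UMIs within 6.86% and 8.39% of all UMIs, and tenocyte-like cells, marked by *Scx* and *Tnmd*, followed at 11.4 and 15.3. At Day 10 chondrocyte-like Cluster 0 was highest at 10.4 and 8.92, close to hypertrophic chondrocyte-like cells (9.39 and 8.90) and interdigital mesenchyme-like cells (9.47 and 7.92). The last are Cluster 3, named from *Hoxa13*, *Hoxd13* and *Msx2* but with the joint surface gene *Prg4* among its leading genes. The rank of Cluster 0 was not stable. It depended on the clustering: at 2 times the resolution an unnamed cluster of 101 and 107 cells, led by *Car9*, *Fabp4* and *Plppr1*, had 32.6 and 32.1 CPM and held 3.16% and 3.68% of *Wnt5b* UMIs. With WNT genes among the features an unnamed cluster of 266 and 257 cells had 21.7 and 25.9. These are the small clusters in which *Wnt9a* was highest too. No main cluster of Day 10 was named joint interzone-like. All cells of the cluster seen at 2 times the resolution came from main Cluster 3, the interdigital mesenchyme-like cluster with *Prg4*. The small cluster's leading genes *Fabp4*, *Plppr1* and *Angptl1* also led the joint interzone-like cluster of Day 7. *Wnt4* stood at 37.5 and 29.5 CPM in this small cluster, and at 14.9 and 13.0 in the cluster found with WNT genes among the features. Whether joint interzone cells were merged into larger clusters at Day 10 was not tested.

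Within joint interzone-like cells, UMIs of *Wnt4* and *Wnt5b* were counted in the same cells. At Day 2, 42% and 39.4% of the cells with a *Wnt4* UMI had a *Wnt5b* UMI, against 18.7% and 17.5% of those without. At Day 7 the shares were 34.1% and 30.8% against 17.2% and 19.3%. For *Wnt9a* they were 13.1% and 20.7% against 7.43% and 8.98% at Day 2. Cells with a *Wnt4* UMI were deeper in all 4 libraries (medians of 11478 to 16456 UMIs against 8135 to 13751), and the part of depth in these shares was not tested. For comparison, a *Wnt5b* UMI was found in 0 of 19 and 0 of 8 immune-like cells at Day 2 (upper 95% limits of 17.6% and 36.9%). At Day 7 it was found in 4 of 28 and 1 of 43, and median depths on both days were 17676 to 30436 UMIs. These are too few immune-like cells to set the shares without a *Wnt4* UMI apart from theirs, and the level of free RNA is not known. The shares are therefore not read as co-expression.

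*Wnt5a* was spread over nearly all cell classes. A UMI of it was found in 61.0% and 37.6% of all cells on Day 2, 30.1% and 29.2% on Day 7, and 49.1% and 47.0% on Day 10. Such shares depend on both level and depth per cell, and they did not follow depth alone. Day 2 replicate B had the lowest median depth, 3868.5 UMIs, but a larger share than the Day 7 libraries, at 8041 and 9325 UMIs. At Day 2 it was highest in interdigital mesenchyme-like Cluster 9, marked by *Hoxa13*, *Hoxd13* and *Msx1*, at 203 and 196 CPM, and lowest of the clusters plotted in myocyte-like Cluster 11. At Day 7 perichondrium-like cells (84.1 and 67.8) and contractile-like Cluster 2 (66.6 and 61.7) were among the highest, beside unnamed Cluster 13 on 10 and 39 UMIs. At Day 10 unnamed Cluster 1 (89.0 and 78.9), shallow cells enriched for all 5 perichondrium markers, and osteoblast-like cells (68.8 and 71.9) led. In 3 of 4 alternative clusterings a perichondrium-like cluster was highest at that day, at 83.9 to 113 by mean. On the same day immune-like cells had 8.59 and 9.77, with a UMI in 11.9% and 14.7% of cells.

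*Wnt11* was low throughout and also broad. By the mean of both libraries its highest levels were in interdigital mesenchyme-like cells at Day 2 (6.96 and 8.53 CPM), in joint interzone-like cells at Day 7 (4.68 and 6.48) and in osteoblast-like cells at Day 10 (5.75 and 7.76). In Day 10 replicate A alone, chondrocyte-like Cluster 8 was higher, at 8.36 against 3.35 in replicate B. Chondrocyte-like cells held 38.1% and 37.0% of the *Wnt11* UMIs of Day 10, and osteoblast-like cells 5.59% and 8.21%. The Day 10 holder kept its name in 2 of 4 alternative clusterings, and that of Day 7 in 3 of 4, with 3.56 by mean in an unnamed cluster at 0.5 times the resolution. *Wnt2* was highest at Day 2 in the unnamed cluster led by *Ankrd1* (1.59 and 0.605 CPM), and *Wnt2b* had no cluster with at least 3 UMIs in both libraries at Day 10.

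The genes most like each ligand across cells were read from 90 sums, 1 per cluster and library, pooled over the 3 days. Likeness over 10189 genes was Pearson's r of log2 (CPM + 1), for ligands with at least 5 CPM in a cluster in both libraries. Sums from the same library share its depth, and sums from the same cluster share its cells. Changes between days that genes have in common also enter r, so these values are descriptions. *Wnt10a* was most like *Igfbp6* (r = 0.80), *Timp1* (0.76) and *Klhdc8a* (0.75), and *Wnt10b* was most like *Ibsp* (0.74) and *Mmp13* (0.73), genes of bone and its matrix turnover, and *Preb* (0.70). As *Ibsp* was among the markers that named the osteoblast-like cluster, its likeness is no separate sign of bone. *Wnt5a* was most like the limb mesenchyme factors *Prrx1* (0.80) and *Lhx9* (0.79), and *Man1a2* (0.78). *Wnt9a* was most like *St8sia2* (0.76), *Dcx* (0.74) and *Clstn2* (0.74). *Wnt4* (*Kbtbd11*, 0.66), *Wnt5b* (*Tpst1*, 0.69), *Wnt11* (*Cldnd1*, 0.60) and *Wnt6* (*Sbsn*, 0.56) had lower best values. With 5 in place of 1 added to the CPM, the first gene changed for 6 of these 8 ligands, among them *Wnt10a* (*Il1rl1*, 0.81) and *Wnt10b* (*Sema3b*, 0.76), *Wnt6* and *Sbsn* gave 0.71, and of the first 3 genes 1 stayed for *Wnt6* and *Wnt10b* and 2 or 3 for the others. Between members, *Wnt6* and *Wnt10a* gave 0.58, *Wnt5a* and *Wnt11* 0.49, and *Wnt4* and *Wnt5b* 0.44.

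The list of ligand secretion and maturation holds 5 genes for lipid attachment and transport (*Porcn*, *Wls*, *Sar1b*, *Tmed2* and *Tmed5*) and 2 for enzymes that inactivate WNT proteins outside or at the surface of the cell (*Notum* and *Trabd2b*). Of these 7 genes, 5 rose and 0 fell between Day 2 and Day 7 (median log2 fold change 0.33), beside 35.7% and 34.6% of all genes. Between Day 7 and Day 10, 6 rose and 1 fell (0.28), beside 26.3% and 25.8%, and all 7 were higher at Day 10 than at Day 2 (0.59), beside 39.1% higher. The same shares of all genes stand behind the counts of the lists that follow. Without TMM factors the median of all genes moved by -0.28 at Day 7 against Day 2 and by -0.26 at Day 10 against Day 2. The lists were not examined in that setting. *Wls*, the carrier that brings WNT proteins to the cell surface, stood at 153 and 156 CPM on Day 2, 186 and 183 on Day 7, and 230 and 234 on Day 10. Its log2 fold change from Day 2 to Day 10 was 0.59 ± 0.050 (edgeR, adjusted p = 5.99e-06). *Sar1b*, of the vesicle coat that leaves the endoplasmic reticulum, rose by 0.73 ± 0.056 over the same time (adjusted p = 3.03e-06). *Trabd2b*, a protease that trims WNT proteins, rose by 1.60 to Day 7 and then fell by 0.65.

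Receptors moved in both directions. Of 18 receptors and co-receptors 7 rose and 6 fell between Day 2 and Day 7, 3 rose and 5 fell between Day 7 and Day 10, and 10 were higher and 7 lower at Day 10 than at Day 2, and nothing is read from these counts. *Fzd9* went from 14.9 and 13.7 CPM at Day 2 to 49.9 and 49.1 at Day 7 (log2 fold change 1.79 ± 0.086, edgeR, adjusted p = 2.67e-07), and *Fzd6* rose by 1.86 over the same days. *Fzd3*, a Frizzled known for planar polarity, fell by 1.13 to Day 7 and by a further 0.44 to Day 10. *Reck*, a co-receptor for certain WNT ligands, rose by 0.80 to Day 7 and fell by 0.50 to Day 10. In the planar polarity list 5 of 11 genes rose and 3 fell to Day 7, where *Vangl2*, a core polarity membrane protein, fell by 1.57 (edgeR, adjusted p = 4.01e-07); *Prickle1*, its partner in the pathway, fell by 0.99 from Day 7 to Day 10, when 0 rose and 2 fell.

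Of 11 genes of the β-catenin route 1 rose and 10 fell to Day 7 (median -0.33), beside 34.6% of all genes lower. Between Day 7 and Day 10, 5 rose and 3 fell (median 0.12), and from Day 2 to Day 10, 2 were higher and 6 lower (-0.32), beside 38.2% of all genes lower. *Lef1*, a DNA-binding partner of β-catenin, went from 15.5 and 16.3 CPM at Day 2 to 6.99 and 6.85 at Day 7 and 3.71 and 4.57 at Day 10, a log2 fold change of -1.94 ± 0.092 over the whole time (edgeR, adjusted p = 1.72e-07). *Dvl1*, an adaptor below the receptors, was higher by 1.53. Of the 9 feedback targets tested 1 rose and 5 fell to Day 7, 2 rose and 3 fell from Day 7 to Day 10, and 3 were higher and 5 lower at Day 10 than at Day 2.

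*Axin2*, which many cells switch on when β-catenin is active, stood at 10.4 and 12.7 CPM on Day 2, 4.11 and 4.25 on Day 7, and 1.86 and 2.11 on Day 10. Its log2 fold change from Day 2 to Day 10 was -2.54 ± 0.11 (edgeR, adjusted p = 1.00e-07). Over the same days *Wnt10a* and *Wnt10b* were higher, and *Wnt5a* and *Wnt9a* lower. *Nkd1*, another feedback gene, was higher by 0.69. The feedback genes did not share 1 direction.

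Secreted antagonists included the largest rise in these lists. Of 11 tested 4 rose and 6 fell between Day 2 and Day 7 (median -0.98), 4 rose and 4 fell between Day 7 and Day 10, and 4 were higher and 6 lower at Day 10 than at Day 2. With 35.7% of all genes higher and 34.6% lower at Day 7 against Day 2, nothing is read from these counts. *Dkk1*, which blocks the LRP co-receptors and is itself counted among the feedback targets, went from 52.6 and 40.2 CPM at Day 2 to 3.18 and 3.10 at Day 7 (log2 fold change -3.89 ± 0.21, edgeR, adjusted p = 5.43e-07). *Sfrp2*, which binds WNT proteins outside the cell, went from 254 and 216 to 35.3 and 34.8 (-2.75 ± 0.10, adjusted p = 7.57e-08). Its relative *Sfrp5* went the other way, from 0.212 and 0.167 to 12.2 and 12.4 (6.0 ± 0.10, adjusted p = 2.35e-09).

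**Figure D5:**
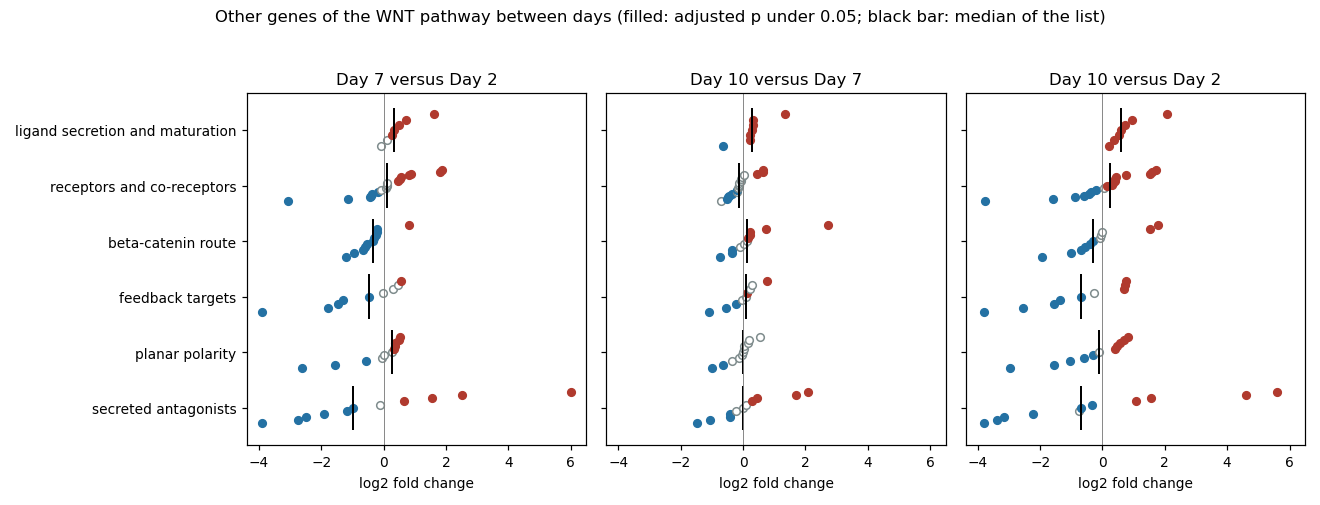
Log2 fold change of the other WNT pathway genes between days, 1 row per list and 1 panel per comparison; filled points passed an adjusted p of 0.05 (red higher, blue lower) and black bars are list medians. The secretion and maturation list lies to the right of 0 in the comparison of Day 10 with Day 2, and the secreted antagonists reach from -3.89 to 6.0 in that of Day 7 with Day 2.

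Of the 9 other WNT ligand genes in the features, 4 had enough counts to be tested, and only *Wnt16*, a ligand known from joints and cortical bone, reached 1 CPM. *Wnt16* stood at 10.5 and 7.78 CPM on Day 2, 13.3 and 12.2 on Day 7, and 18.0 and 19.2 on Day 10, without overlap between days, and lay above *Wnt4* and *Wnt10a* in both Day 10 libraries. Its log2 fold change from Day 2 to Day 10 was 1.02 ± 0.12 (edgeR, adjusted p = 5.43e-05). The other 3 tested, *Wnt7a*, *Wnt7b* and *Wnt8b*, which are named with their values known, were lower at Day 7 and at Day 10 than at Day 2 and stayed under 0.24 CPM in every library.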

How the data were processed

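The submitters' processing notes name Cell Ranger 6.1.2, STAR and Seurat 4.1.0 and the build GRCm38 (mm10). The authors deposited per-library matrices of UMI counts per gene and cell barcode, not normalized, and made them per day and culture with no pooling of libraries; the reads were not used here. Cells were kept with the filters the study states (200 to 7500 genes, a UMI minimum of 800 or 1000, mitochondrial and ribosomal limits per library). Counts were summed per library, since cells are not replicates, and tested with edgeR 4.0.16 (filterByExpr, TMM, quasi-likelihood fit over all 6 libraries; R 4.3.3), with Benjamini-Hochberg adjustment over 18987 genes and a threshold of 0.05. TMM factors were 0.927 to 1.14, the common biological coefficient of variation 0.0689 and the residual degrees of freedom 3, which limits the precision of each spread. The same script was tested on simulated counts.

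Replicates A and B are independent cultures by the study's account. Whether a letter stands for a shared seeding or capture across days is not stated. The correlations of the A minus B differences between days over 18987 genes were -0.02, -0.06 and -0.01. The libraries were not treated as pairs, and such correlations cannot settle whether a letter marks a shared origin.

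Clusters were rebuilt for each day with Seurat 5.3.0 (SCTransform with the difference of S and G2M scores regressed, anchors and principal components from 3000 features, 35 dimensions, resolution 0.5 at Day 2 and Day 7 and 0.7 at Day 10). A class name needed 3 markers at a log2 ratio over 0.25 in both libraries and a UMI in at least 25% of cells, and a cluster stayed unnamed where another class led its 10 top genes or where it was shallow with none of its markers among them. Names may therefore differ from the study's. No doublet caller was run, and an alternative left out the 5% of cells with the most UMIs. A holder of a ligand needed at least 3 of its UMIs in each library.

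All 10 ligands are given in every library. Other WNT ligands are named from 1 CPM, apart from *Wnt7a*, *Wnt7b* and *Wnt8b*, which are named with their values known. Each pathway list gives up to 4 called genes per comparison with the largest fold change, at least 10 CPM on 1 day and no overlap between libraries. The text gives a part of these. The members and the lists were chosen with earlier results of these data known. Alternatives were DESeq2 1.42.0, no TMM factors, no filter, a replicate block, the 2 days alone, leaving out each library, and other sets of cells or clusterings. Deposited columns mapped to no sample numbered 0.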

Additional observations from a re-analysis of the deposited data

How the results depend on the processing

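*Wnt10a* and *Wnt10b* kept their direction and their call in all 13 alternatives of every comparison, as did *Wnt5a* and *Wnt9a* at Day 7 and Day 10 against Day 2 and *Wnt11* at Day 7 against Day 2. Over the log2 fold changes of the 10 ligands under these alternatives, 330 kept direction and side of the threshold, 25 fell below it, 21 passed it and 8 turned direction. The 21 were *Wnt6* (5), *Wnt2b* (2) and *Wnt5b* (2) at Day 7 against Day 2, *Wnt11* (4), *Wnt4* (2) and *Wnt9a* (1) at Day 10 against Day 7, and *Wnt2* (4) and *Wnt5b* (1) at Day 10 against Day 2. For every difference listed here the cause was not tested, and this holds for thinned cells too, where the sums were smaller.

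Without TMM factors 8 ligands were lower at Day 7 against Day 2. With cells thinned to 1000 UMIs, 7971 genes were called at Day 7 against Day 2 (4096 higher, 3875 lower), 3422 at Day 10 against Day 7 (1747 and 1675) and 8857 at Day 10 against Day 2 (4492 and 4365); 3 ligands were then lower at Day 7 against Day 2 and 2 higher at Day 10 against Day 7, and *Wnt2* and *Wnt2b* gave no value. 1 ligand was lower at Day 10 against Day 7 without the 5% of cells with the most UMIs, and 1 with only the 2 days compared. Leaving out each library in turn gave 3 to 5 ligands lower at Day 7 against Day 2 and 0 to 1 at Day 10 against Day 7.

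Directions turned for values that passed no test in either setting. With all deposited barcodes, *Wnt2* at Day 10 against Day 7 was -0.15 and *Wnt5b* at Day 10 against Day 2 was 0.0525. With thinned cells, *Wnt5b* and *Wnt11* at Day 10 against Day 7 were -0.23 and -0.30. Leaving out each library in turn, *Wnt5b* at Day 10 against Day 2 ran from -0.12 to 0.0799 (turned without Day 2 replicate A or Day 10 replicate B), *Wnt5b* at Day 10 against Day 7 from -0.0018 (without Day 7 replicate A) to 0.33, and *Wnt2* at Day 10 against Day 7 from -0.12 (without Day 10 replicate B) to 0.53.

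A replicate block, which the main fit did not use, was also run. With it, 13140, 9608 and 14527 genes were called at Day 7 against Day 2, Day 10 against Day 7 and Day 10 against Day 2. The ligands lower at Day 7 against Day 2 numbered 4, with *Wnt2* (edgeR, adjusted p = 0.0608) and *Wnt4* (adjusted p = 0.0542) not called and *Wnt6* (adjusted p = 0.0161) called.

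Of 29 pairs of a ligand and a day, the highest cluster had the same label in 16 at 0.5 times the resolution, 23 at 2 times, 25 without integration and 23 with WNT genes among the features, counts in which a change from an unnamed cluster to another unnamed one passes as the same. Of the 24 pairs with a named cluster, the class name was kept in 14, 19, 22 and 20. Read in single libraries of the main clusters, the name was kept for 6 and 7 of 8 ligands with a named cluster at Day 2, 8 and 8 of 9 at Day 7, and 6 and 5 of 7 at Day 10.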

Other observations

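*Wnt16*, which is not among the 10 ligands, was held by different cells on each day. It was highest in joint interzone-like cells at Day 2 (29.3 and 21.1 CPM of the cluster in replicates A and B) and, level with each other, in contractile-like Cluster 2 (30.6 and 27.3, with 59.5% and 58.2% of its UMIs) and perichondrium-like cells (29.3 and 28.5, with 4.90% and 4.06%) at Day 7. At Day 10 it was highest in Cluster 3, at 44.5 and 49.4, followed by tenocyte-like cells at 31.8 and 38.5. That cluster was named interdigital mesenchyme-like from *Hoxa13*, *Hoxd13* and *Msx2*, but *Prg4*, the lubricin gene of joint surfaces, was among its leading genes. The study annotated its own Day 10 cluster with *Prg4* as articular perichondrium. Across the 90 sums its likeness to *Wnt5a* was r = 0.38 and to *Wnt4* -0.26.

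In Day 10 osteoblast-like cells *Wnt10b* and *Wnt4* showed no common lean between replicates: a *Wnt4* UMI was found in 44.2% and 58.7% of the cells with a *Wnt10b* UMI (19 of 43 and 27 of 46) and in 55.7% and 47.8% of those without.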
